A study of Mus musculus with 4 samples.

Results

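The comparison described here is that of restimulated Th2 cells cultured with SH-2251 against restimulated Th2 cells cultured without it, across the genes that could be measured. SH-2251 is a small molecule, described by the study as related to thioamides, whose action on IL-5 in T cells was under study. A gene entered the comparison if either restimulated array gave its probe a signal well above background, which was so for 12622 of the 18539 named genes on the array. The other 5917 genes were not well above background on either array and are not compared. Of the genes compared, 11812 were above background on both arrays, 444 on the control array alone and 366 on the SH-2251 array alone.

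Both cultures started from CD4 T cells of the spleen of female C57BL/6J mice. Per the labels, a first phase of 2 days combined plate-bound anti-TCR-β antibody at 3 µg/ml, anti-CD28 antibody at 1 µg/ml, IL-4 at 10 ng/ml and IL-2 at 2.5 ng/ml, and a second phase of 3 days kept the 2 cytokines alone. The study's methods also list an anti-IFN-γ antibody among the Th2 conditions, and describe the starting cells as naïve CD4 T cells. SH-2251 was present in both phases of the treated culture and absent from the control culture. Its concentration is 1 µM in the labels' first phase but 1 mM in their second, and the study's methods state a lower default, so the dose is uncertain. Restimulation was for 4 h with immobilized anti-TCR-β antibody. Each condition had 1 array, and the labels do not say how many mice a culture came from. No spread between cultures could be measured, no test was made, and every difference below is that between 2 arrays. A resting array of each culture is given beside it for reference.

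Th2 cells are helper T cells of allergy and of defence against worms. Their signature cytokine genes Il4, Il13 and Il5 sit together in 1 locus, with the gene Rad50 among them, and Gata3 is the lineage's defining transcription factor. Most Th2 cytokine genes are weakly transcribed at rest and are switched on within hours of a new signal through the TCR, so a restimulated culture shows what the cells can make, and a resting culture what they carry.

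Levels are log2 intensities relative to the 75th percentile of the probes on the same array, so a level of 0 is that percentile. Levels of different genes come from different probes and cannot be set against each other. The technical SD is the scanner software's error estimate for the spots of the 2 arrays, with a median of 0.204 over the genes compared. It leaves out variation between cultures. Spike-in probes, which carry the same added RNA on both arrays, were lower on the SH-2251 array, with differences of -0.17 to -0.12 on this scale (7 probes above background on both), and the median difference of all genes compared was -0.06. The cells carried the markers of their label: 12 of 12 genes of a Th2 and CD4 T cell list were above background on both arrays, with summed linear levels of 937 in the control and 919 with SH-2251, in units of the 75th percentile.

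With SH-2251, 351 genes (2.78% of those compared) were at least 2-fold lower than in the control and 334 genes (2.65%) were at least 2-fold higher, while 94.6% of the genes lay within 2-fold. Of the lower genes, 239 were measured on both arrays and 112 were known only as a bound, because the SH-2251 signal was not well above background. Of the higher genes, 266 were measured on both arrays and 68 were bounds. At least 4-fold differences were found for 69 lower and 48 higher genes, and at least 8-fold differences for 15 lower and 11 higher genes. Counts in the gene lists below are to be read against these shares. The lists were written with earlier results of these data known, so a count above a share is a description and no test. The largest decreases included the IL-33 receptor Il1rl1, the nuclear receptor Pparg and Il5 itself, and the largest increases included the integrin subunit Itgae and the protease inhibitor Slpi.

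**Figure D1:**
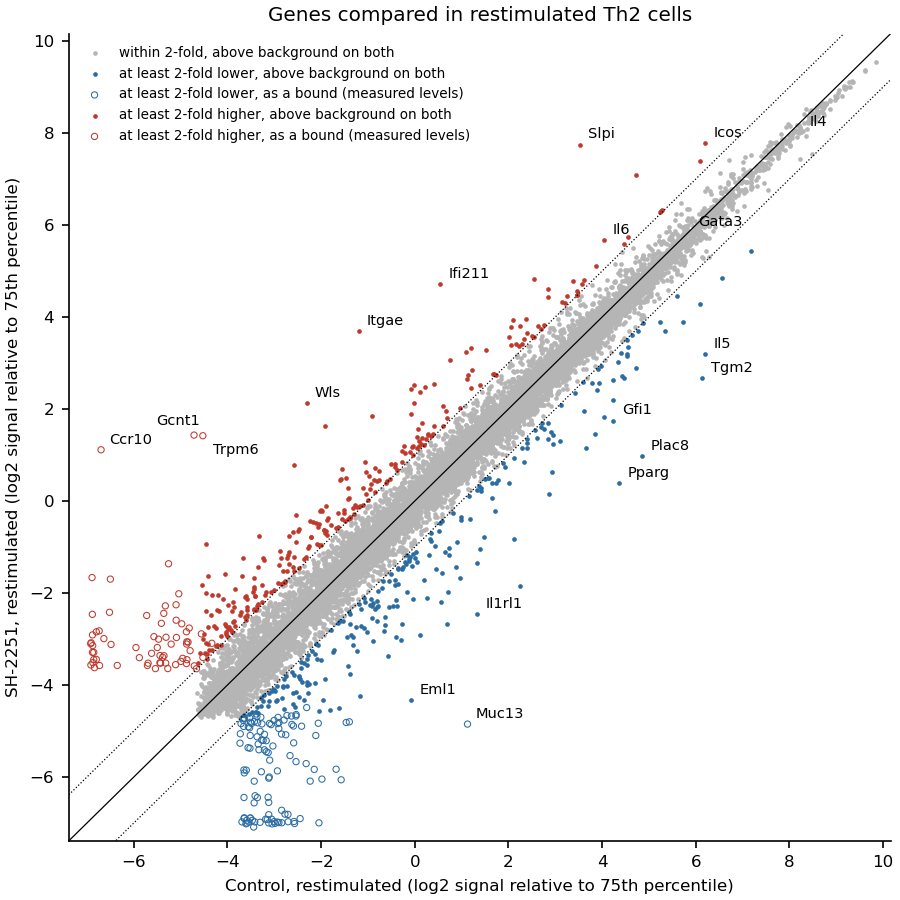
Level of each gene in restimulated Th2 cells without (horizontal axis) and with SH-2251 (vertical axis), as log2 signal minus that array's 75th percentile, 1 array per axis. The solid line marks equal levels and the dotted lines 2-fold differences. Filled points are genes above background on both arrays and open circles are differences known as bounds, drawn at their measured levels. Genes within 2-fold that were above background on 1 array are not drawn. The 351 lower genes lie below the band and the 334 higher genes above it, with Il4 and Gata3 on the diagonal.

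The purpose of the study was to learn how SH-2251 acts on Il5, and the cytokine locus is given first. Il5, which encodes the cytokine that matures and maintains eosinophils, had restimulated levels of 6.20 without and 3.19 with SH-2251, which differed by -3.01 (8.05-fold lower, technical SD 0.20). At rest its levels were 1.04 and -2.82. Restimulation was therefore followed by a higher Il5 level in both cultures, and the treated culture reached a level above that of the resting control. Il4 stood at 8.25 and 8.02, a difference of -0.24, and Il13 at 3.28 and 2.72, a difference of -0.57, both within 2-fold. Rad50, a DNA repair gene that lies between Il5 and Il13, stood at 1.69 and 0.77, a difference of -0.93. Of the 9 genes of this locus list that could be compared, 1 was lower and none was higher by 2-fold or more.

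Among 25 other T cell cytokines compared, 3 were lower and 4 higher by 2-fold or more, with a median difference of 0.05. Il21, a cytokine that helps B cells, had levels of 1.48 and -0.77 and was 4.74-fold lower. Ifng, the main Th1 cytokine, had levels of 5.34 and 3.70 and was 3.12-fold lower. Il2, the T cell growth factor, had levels of -1.44 and -2.96 and was 2.87-fold lower. These 3 genes thus shared the direction of Il5. The higher genes were Il6, at 4.05 and 5.68 (3.10-fold), Il1a, at -1.42 and 0.04 (2.76-fold), Lta, at 2.70 and 3.75 (2.07-fold), and Il9. Il9, the defining cytokine of Th9 cells, was not well above background in the control and was at least 3.96-fold higher with SH-2251. Csf2 and Tnf, both made by many activated T cells, differed by 0.01 and 0.06. Il10 lay just inside 2-fold, at -0.98.

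Of 11 chemokine genes compared, 5 were lower and 1 was higher by 2-fold or more, against 2.78% and 2.65% over all genes compared, and the list's median was -0.73. With normexp background correction, which compresses dim signals, the counts were 3 and 0. Cxcl3, a neutrophil attractant, was not well above background in both resting cultures and had restimulated levels of 0.70 without and -1.99 with SH-2251 (6.46-fold lower). Ccl5, which attracts T cells and eosinophils, had levels of 2.95 and 1.23 (3.30-fold lower) and was also lower at rest, at 1.79 and -0.57. Cxcl10 and Ccl17, which bind Cxcr3 and Ccr4, were 2.92-fold and 2.49-fold lower. Ccl3 had levels of -4.30 and -4.43 at rest and of 3.97 and 2.93 after restimulation (2.06-fold lower). Ccl24 was at least 3.02-fold higher by its brightest probe, while a second probe gave a bound of 0.12 on the log2 scale. Its call therefore rested on 1 of its probes.

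Of 16 chemokine receptors compared, 2 were lower and 2 higher by 2-fold or more. Ccr3, the eotaxin receptor of eosinophils and some Th2 cells, had levels of -0.91 and -2.54 (3.10-fold lower), and Cxcr3 had levels of 1.36 and 0.33 (2.05-fold lower). Cxcr6 had levels of 4.54 and 5.74 (2.29-fold higher), whereas its difference at rest was -1.04. Ccr10, a receptor for chemokines of skin and mucosa, was not well above background in the control and had a level of 1.12 with SH-2251, which makes it at least 54.5-fold higher. Under the alternatives of processing in the closing section its lowest difference was 3.96 on the log2 scale. Ccr4 and Ccr8, typical receptors of Th2 cells, differed by 0.19 and 0.54.

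**Figure D2:**
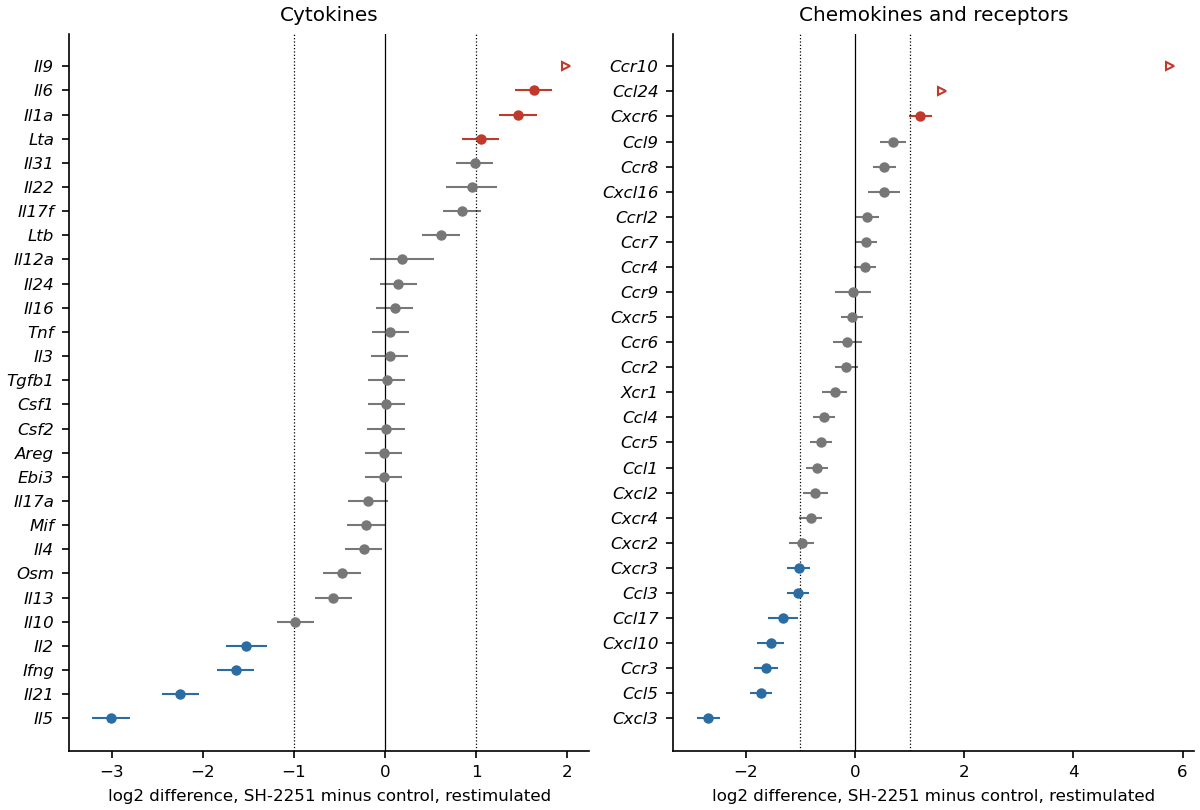
Log2 difference between SH-2251 and control in restimulated Th2 cells for the cytokine genes (left) and for the chemokine and chemokine receptor genes (right) that could be compared. Bars are 1 technical SD from the scanner software and do not cover variation between cultures. Open triangles are bounds, solid lines mark no difference and dotted lines 2-fold. Il5 is the lowest cytokine at -3.01 and Ccr10 the highest chemokine receptor at 5.77.

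Of 22 transcription factors of Th2 cells compared, 3 were lower and none was higher by 2-fold or more, and the median was -0.05. The shares over all genes compared were 2.78% lower and 2.65% higher. With normexp 2 of the 22 were lower. Gfi1, a repressor that recruits histone-modifying enzymes, had levels of 4.24 and 1.75 (5.63-fold lower), against 3.38 and -2.01 at rest. The difference was -2.49 after restimulation and -5.39 at rest, and whether the 2 states differ could not be tested. Maf, an activator of Il4, had levels of 4.56 and 3.34 (2.33-fold lower), and its second probe gave -1.43. Bhlhe41 was at least 2.37-fold lower. Gata3 had levels of 5.87 and 5.83, a difference of -0.03. Among 23 regulators of other T cell lineages, those named here are Zbtb32, which was 3.46-fold lower, and Id3 (2.35-fold) and Ikzf2 (at least 2.64-fold), which were higher. The call of Ikzf2 rested on 1 probe, since its other probes were not well above background on any array. No member of a list of 35 histone-modifying enzymes and Gfi1 partners differed by 2-fold, with differences from -0.25 to 0.90. This is near the share of all genes compared that lay within 2-fold (94.6%).

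The 15 largest decreases among genes measured on both arrays ranged from -4.24 to -2.73. Eml1, a microtubule-associated protein, headed them with levels of -0.08 and -4.32. Its treated level was near that array's dimmest signal well above background (-4.74). Its smallest difference under the alternatives of processing was -2.79. Hic1, a transcriptional repressor, had levels of 2.26 and -1.86, and Pparg, a nuclear receptor for fatty acid ligands, 4.37 and 0.38. Plac8 had levels of 4.86 and 0.98. The treated levels of Hic1, Pparg and Plac8 lay below those of the control in the resting pair as well, with differences of -4.88, -3.83 and -4.20.

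Il1rl1, which encodes the ST2 chain of the IL-33 receptor, had levels of 1.33 and -2.45 (13.7-fold lower), and its second probe gave -3.94. Of 27 cytokine receptors compared, Il10ra (2.82-fold) and Csf2rb (2.85-fold) were the other 2 that were at least 2-fold lower, and Il1r1 (2.92-fold) was higher. The second probe of Csf2rb gave 0.02, so its 2 probes disagreed. Itga4, the α4 integrin subunit that binds VCAM-1, was 7.34-fold lower by its brightest probe, and its second probe gave only a bound of -0.48 on the log2 scale. Slc6a19, a transporter of neutral amino acids, was 6.96-fold lower, Osgin1, a gene of the response to oxidative stress, 6.79-fold, and Grtp1 6.64-fold. Ccdc33 was 8.34-fold lower. The treated levels of Grtp1 and Ccdc33, -4.53 and -4.24, were near that array's dimmest signal well above background (-4.74). Their smallest differences under the alternatives of processing were -1.47 and -1.78.

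Bounds among the lower genes reached further. Muc13, a transmembrane mucin, had a level of 1.13 in the control and was too dim to be called above background in the treated culture, so it was at least 58.3-fold lower. Such bounds hold for the scanner software's background correction, and normexp gave smaller values for dim genes (-3.90 for Muc13 on the log2 scale). The scavenger receptor Stab1 was at least 10.1-fold lower, the calcium-binding protein Hrc at least 9.67-fold and Fgl2, a fibrinogen-like protein, at least 8.33-fold. Elavl3, Ms4a3 and Col24a1, at least 6.40-fold to 6.75-fold lower, were not above background in either resting culture.

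The 15 largest increases among genes measured on both arrays ranged from 4.89 down to 2.46. Itgae encodes the αE chain (CD103) that pairs with β7 and binds E-cadherin. Its levels were -1.20 and 3.69 (29.6-fold higher), against -1.21 and 3.33 at rest. Wls, the carrier that brings Wnt proteins to the cell surface, had levels of -2.31 and 2.13 (21.7-fold higher). Slpi, a secreted inhibitor of leukocyte serine proteases, had levels of 3.53 and 7.75 (18.6-fold higher). Dio2, the enzyme that activates thyroid hormone, was 11.6-fold higher, Flrt3 6.72-fold and Maged1 5.70-fold. Qser1, Avil, 4930550L24Rik and Rassf4 were between 5.52-fold and 6.89-fold higher. Control levels of Dio2, Qser1, Avil and Rassf4 were -4.46, -4.42, -4.55 and -4.45, near that array's dimmest signal well above background (-4.65). Under the alternatives of processing their lowest log2 differences were 1.82, 1.05, 1.15 and 1.09. Fmnl2, an actin-nucleating formin, was 10.3-fold higher by its brightest probe, whereas its second probe gave -0.10.

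Bounds among the higher genes were led by Gcnt1, at least 68.0-fold higher, with 2 further probes that each gave at least 4.11 on the log2 scale. Trpm6, a magnesium channel, was at least 61.6-fold higher. Cubn, Hoxa13, Map2, Chit1 and Vegfc followed with bounds of 9.79-fold, 7.95-fold, 7.77-fold, 6.23-fold and 5.28-fold, each not well above background in the restimulated control.

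**Figure D3:**
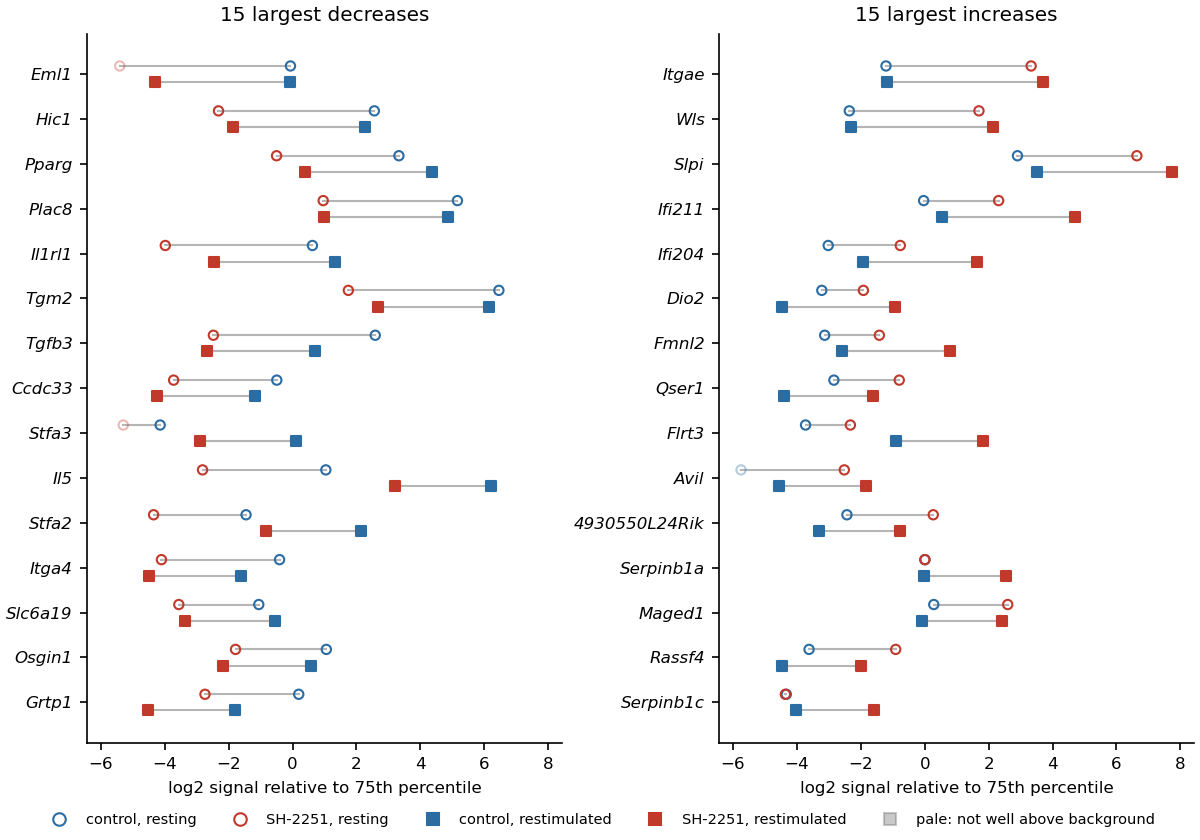
Levels on the 4 arrays for the 15 largest decreases (left) and the 15 largest increases (right) among genes measured on both restimulated arrays, as log2 signal relative to the 75th percentile. Circles are resting cultures, squares restimulated cultures, blue is control, red is SH-2251, and pale symbols were not well above background. Each symbol is 1 array. Levels can be compared within a row only. Serpinb1a and Serpinb1c separate after restimulation and coincide at rest, where Serpinb1c was near background.

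Some genes differed between the cultures after restimulation but hardly at rest. Serpinb1a and Serpinb1c, members of a family of intracellular serine protease inhibitors, were 5.81-fold and 5.50-fold higher with SH-2251 after restimulation and differed by -0.01 and -0.03 at rest. Serpinb1a had a level of -0.01 in the restimulated control and 2.53 with SH-2251, and its 2 resting levels were 0.01 and 0.00. Whether the probes of these related genes read each other's transcripts was not tested. Over all genes, 167 of the 351 lower genes were also at least 2-fold lower at rest (47.6% of these and 45.4% of the 368 that were lower at rest), and a further 101 pointed the same way by less. Of the 334 higher genes, 149 were also at least 2-fold higher at rest (44.6% of these and 52.8% of the 282 that were higher at rest), and 129 pointed the same way by less. At rest 71 of the lower and 34 of the higher genes could not be compared.

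Genes of the stefin A group, which inhibit cysteine proteases such as cathepsins, formed a cluster among the lower genes. Stfa2 and Stfa3 were among the 15 largest decreases, and Stfa1 and Stfa2l1 were added after their values had been seen. Stfa2 had levels of 2.13 and -0.82 and Stfa3 of 0.11 and -2.90. Stfa2l1 had levels of 2.87 and 0.16, a difference of -2.70, and Stfa1 of 1.71 and -0.22, a difference of -1.93. In both cultures all 4 had higher levels after restimulation than at rest. At rest the differences were -2.12 (Stfa1), -2.89 (Stfa2), -2.58 (Stfa2l1) and a bound of -0.51 (Stfa3). The 4 genes belong to 1 family, and whether their probes read each other's transcripts was not tested, so they are not counted as 4 independent measurements. Their promoters on chromosome 16 are shown because all 4 genes were lower, taken from RefSeq for assembly GRCm38.p6, from 250 bases before to 50 bases after the start. Capitals mark runs of 10 or more bases that all 4 share, 88 bases in 7 runs in each. They lie at chr16:36276898-36277197 (Stfa1, plus strand), chr16:36408314-36408613 (Stfa2, minus strand), chr16:36156561-36156860 (Stfa2l1, plus strand) and chr16:36455343-36455642 (Stfa3, minus strand).
Stfa1: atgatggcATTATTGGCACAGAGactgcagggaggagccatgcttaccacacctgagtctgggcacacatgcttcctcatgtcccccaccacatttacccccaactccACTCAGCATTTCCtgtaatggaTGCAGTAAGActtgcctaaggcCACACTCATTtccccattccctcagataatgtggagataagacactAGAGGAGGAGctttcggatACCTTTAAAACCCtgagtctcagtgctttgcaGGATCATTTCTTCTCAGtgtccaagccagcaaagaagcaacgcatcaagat
Stfa2: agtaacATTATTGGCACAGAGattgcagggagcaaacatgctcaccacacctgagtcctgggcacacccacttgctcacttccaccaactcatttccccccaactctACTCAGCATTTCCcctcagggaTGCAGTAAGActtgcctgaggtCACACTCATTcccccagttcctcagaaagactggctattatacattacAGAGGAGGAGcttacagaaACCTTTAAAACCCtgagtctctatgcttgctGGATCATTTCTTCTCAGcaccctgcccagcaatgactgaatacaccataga
Stfa2l1: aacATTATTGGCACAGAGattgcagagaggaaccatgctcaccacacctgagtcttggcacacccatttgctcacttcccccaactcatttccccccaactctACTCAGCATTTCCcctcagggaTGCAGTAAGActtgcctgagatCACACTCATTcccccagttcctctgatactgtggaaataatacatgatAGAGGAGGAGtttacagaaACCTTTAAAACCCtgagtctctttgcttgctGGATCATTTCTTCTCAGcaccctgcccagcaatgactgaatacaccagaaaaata
Stfa3: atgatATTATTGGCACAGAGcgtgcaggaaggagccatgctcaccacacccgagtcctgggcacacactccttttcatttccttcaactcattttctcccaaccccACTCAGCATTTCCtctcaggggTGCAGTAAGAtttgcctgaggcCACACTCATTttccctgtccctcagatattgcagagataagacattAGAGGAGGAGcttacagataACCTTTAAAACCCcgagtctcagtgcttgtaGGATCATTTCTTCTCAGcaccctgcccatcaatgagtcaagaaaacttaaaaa

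In pairwise global alignment the promoters of Stfa2 and Stfa2l1 were 90.5% identical, and the other 5 pairs were between 79.2% and 81.0% identical. The expression data do not bear on which of these bases, if any, act in these cells.

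Interferon-stimulated genes, which act against viruses and are induced by interferon signalling, were more often lower than higher. Of 31 compared, 9 were lower and 2 higher by 2-fold or more, against 2.78% and 2.65% over all genes, and the median was -0.38. Usp18, a brake on interferon receptor signalling, had levels of -0.41 and -2.95 (5.82-fold lower). Oas1a, a sensor of double-stranded RNA, had levels of -2.36 and -4.33 (3.92-fold lower). Dhx58, Cmpk2 and Rtp4 were 2.28-fold, 2.13-fold and 2.07-fold lower, and the second probe of Cmpk2 gave a bound of -0.37 on the log2 scale. Oasl1, Rsad2, Ifit1 and Ifit3 were lower by at least 8.98-fold, 3.18-fold, 2.77-fold and 2.14-fold, and the second probe of Rsad2 gave a bound of -0.41 on the log2 scale. Iigp1 and Zbp1 were each 2.38-fold higher. Most of these signals were dim: with normexp 2 genes of the list were lower and 1 was higher by 2-fold, although 24 of 31 differences stayed below 0. The median of all genes compared was -0.07 with normexp.

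The interferon response element was searched for as GAAA, any 2 bases and GAAA, on either strand, in the same promoter windows. Overlapping matches were allowed. It was held by 3.99% of the 27025 genes with a promoter in the table. Of the 31 interferon-stimulated genes, 22 had a promoter there and 15 of these held the motif. It was held by 4 of 6 genes that were at least 2-fold lower and by 11 of 16 that were not. Usp18, Dhx58 and Rtp4, which were also at least 2-fold lower, have no promoter in the table, and these counts are too small to compare the lower members with the rest. Promoters of 3 of the lower genes are shown to display the element, with each match in capitals: Rsad2, Ifit1 and Ifit3.
Rsad2: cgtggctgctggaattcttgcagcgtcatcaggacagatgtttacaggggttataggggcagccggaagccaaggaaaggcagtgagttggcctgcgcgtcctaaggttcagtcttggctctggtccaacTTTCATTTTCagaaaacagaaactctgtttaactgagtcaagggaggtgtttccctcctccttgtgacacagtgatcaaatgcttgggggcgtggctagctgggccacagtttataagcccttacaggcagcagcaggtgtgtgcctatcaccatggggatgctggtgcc
Ifit1: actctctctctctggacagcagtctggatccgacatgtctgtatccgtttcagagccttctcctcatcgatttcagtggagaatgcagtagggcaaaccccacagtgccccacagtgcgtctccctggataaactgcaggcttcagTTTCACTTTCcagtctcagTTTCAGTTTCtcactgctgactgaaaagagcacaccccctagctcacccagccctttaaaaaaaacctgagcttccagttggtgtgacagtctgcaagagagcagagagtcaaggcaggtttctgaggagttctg
Ifit3: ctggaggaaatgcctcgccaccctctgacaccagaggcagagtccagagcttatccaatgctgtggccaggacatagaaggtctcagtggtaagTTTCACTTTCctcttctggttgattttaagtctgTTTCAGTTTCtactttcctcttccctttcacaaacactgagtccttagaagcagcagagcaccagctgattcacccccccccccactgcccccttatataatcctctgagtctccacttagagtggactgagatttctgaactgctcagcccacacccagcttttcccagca

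The positions are chr12:26456403-26456702 (Rsad2, minus strand), chr19:34640639-34640938 (Ifit1, plus strand) and chr19:34583279-34583578 (Ifit3, plus strand) of GRCm38.p6, and Ifit1 and Ifit3 each hold 2 matches.

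Members of the HIN-200 family, proteins that bind DNA and are also induced by interferon, moved the other way. Ifi211 had levels of 0.55 and 4.72 (18.1-fold higher) and Ifi204 of -1.92 and 1.64 (11.8-fold higher), and the other probes of Ifi204 gave 3.43 and at least 4.12. Ifi209, the other member that could be compared, differed by -0.33. The other 5 members on the array were not above background. Whether a probe reads more than 1 family member was not tested.

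Genes of the TGF-β pathway, which shapes regulatory and tissue-resident T cells, included 4 that were at least 2-fold lower and none that was higher among 27 compared (2.78% and 2.65% over all genes). The ligand Tgfb3 had levels of 0.69 and -2.67 (10.2-fold lower). The receptor chain Tgfbr2 had levels of 3.93 and 2.56 (2.59-fold lower), and the signal transducer Smad3 had levels of 1.42 and 0.22 (2.31-fold lower), with -1.46 by its second probe. Ltbp3, which anchors latent TGF-β, was 2.15-fold lower, and its second probe gave -0.68. The median of the list was 0.17 and 19 of its members lay above 0, so the list as a whole did not share the direction of these 4. Tgfb1 differed by 0.02 and Tgfbr1 by 0.76.

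In the retinoic acid list, 5 of 15 genes were lower and 2 were higher by 2-fold or more, where the shares over all genes were 2.78% and 2.65%. With normexp the 5 became 3. Hic1 and Tgm2, members of the 5, are also among the 15 largest decreases. The list was written with earlier results of these data known. Besides Hic1, Tgm2, a protein-crosslinking transglutaminase that retinoic acid induces in many cells, had levels of 6.14 and 2.67 (11.1-fold lower), and its 3 probes gave -3.47, -3.39 and -3.61. Aldh1a3, which makes retinoic acid, was 4.08-fold lower, the binding protein Crabp2 at least 4.43-fold and the retinol transporter Stra6 2.28-fold. The receptor Rxra was 3.38-fold higher and Rdh10, which makes retinal, 2.53-fold higher. Rara and Rarg differed by 0.36 and 0.30.

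In a PPAR-γ and lipid-handling list, 4 of 17 genes compared were lower and 1 was higher by 2-fold or more. The shares over all genes were 2.78% and 2.65%. The median of the list was -0.29, and 7 of its members lay above 0. With Pparg, its target Plin2, a coat protein of lipid droplets, had levels of 3.85 and 1.46 (5.25-fold lower), and Dgat1, which makes triglycerides, had levels of 4.04 and 1.82 (4.66-fold lower, with -2.26 by a second probe). Angptl4 was 2.20-fold lower. Fabp4, another known target of PPAR-γ, was at least 3.23-fold higher. Of 27 genes of cholesterol and fatty acid synthesis, 26 lay below 0, with a median of -0.51, and Scd1 (2.25-fold) and Pmvk (2.01-fold) were at least 2-fold lower. The count below 0 was 25 or 26 under 4 other scalings, and Pmvk was at the threshold. All genes compared had a median of -0.06, and their share below 0 was not counted.

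The enzymes that build selectin ligands, sugars by which T cells roll on vessel walls, were more often higher than lower. Of 15 genes compared, 4 were at least 2-fold higher and 1 was lower, beside 2.65% and 2.78% of all genes, with a median of 0.52. Gcnt1 makes the core 2 branch of these sugars, and Fut7, which adds the fucose that selectins recognise, had levels of 1.10 and 3.23 (4.38-fold higher). Fut4, a related fucosyltransferase, was 3.26-fold higher and the mannosidase Man1a 2.08-fold higher. Chst2, a sulfotransferase, was 5.12-fold lower by its brightest probe, whereas its second probe gave a bound of 0.75 in the opposite direction. Selplg, which encodes the protein that carries the sugars, differed by 0.45.

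Receptors and signalling genes of T cell activation showed a mixed picture. Icos, a costimulatory receptor, had levels of 6.21 and 7.78 (2.98-fold higher, second probe 1.73), and Havcr2, the inhibitory receptor Tim-3, of 2.05 and 3.79 (3.35-fold higher, second probe 1.79). Ctla4 (2.17-fold) and Lair1 (2.48-fold), both inhibitory, were lower. The kinase Tec was 3.06-fold lower, and Txk and Ubash3b were 2.09-fold and 2.05-fold lower. Fas was 2.12-fold higher by its brightest probe, with 0.51 by its second, and its ligand Fasl was 2.29-fold lower. Tnfsf9, Tnfsf13b and Tnfsf4 were 2.36-fold, 2.27-fold and at least 2.92-fold higher. Of 24 immediate-early and activation genes, 1 (Fosb, 2.19-fold lower) passed 2-fold, and of 19 MAPK and cytokine feedback inhibitors none did. Both counts are near the share of all genes compared, of which 94.6% lay within 2-fold.

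Of 36 cell cycle genes 34 were within 2-fold, a share like that of all genes (94.6%). The other 2 encode inhibitors of the cycle. Cdkn2b had levels of 0.11 and 2.38 (4.84-fold higher) and Cdkn2a of -3.44 and -1.67 (3.40-fold higher), with differences of 2.30 and 1.88 at rest. Cdkn2a was within 2-fold with normexp (0.91). S1pr1, the receptor by which T cells leave lymph nodes, was 3.44-fold lower, and Klf4 and Foxp1, genes of quiescence, were 2.03-fold and 2.02-fold higher. The second probe of Foxp1 gave 0.74. Ptger4 and Alox5ap, of the prostaglandin and leukotriene pathways, were 2.54-fold and 2.32-fold higher. Of 28 glycolysis and hypoxia genes 25 lay below 0, with Slc2a3 2.04-fold lower, and of 22 Myc and ribosome biogenesis genes 21 lay below 0, with Mycn 2.81-fold lower by one probe and with a bound of -0.10 on the log2 scale by another. Their medians were -0.17 and -0.27, beside -0.06 for all genes compared and -0.12 for 14 reference genes, of which 9 lay below 0. The share of all genes below 0 was not counted, so these counts have no background beside them. None of 20 survival genes, 24 amino acid and ER stress genes or 14 reference genes passed 2-fold, which is near the share of all genes within it (94.6%).

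**Figure D4:**
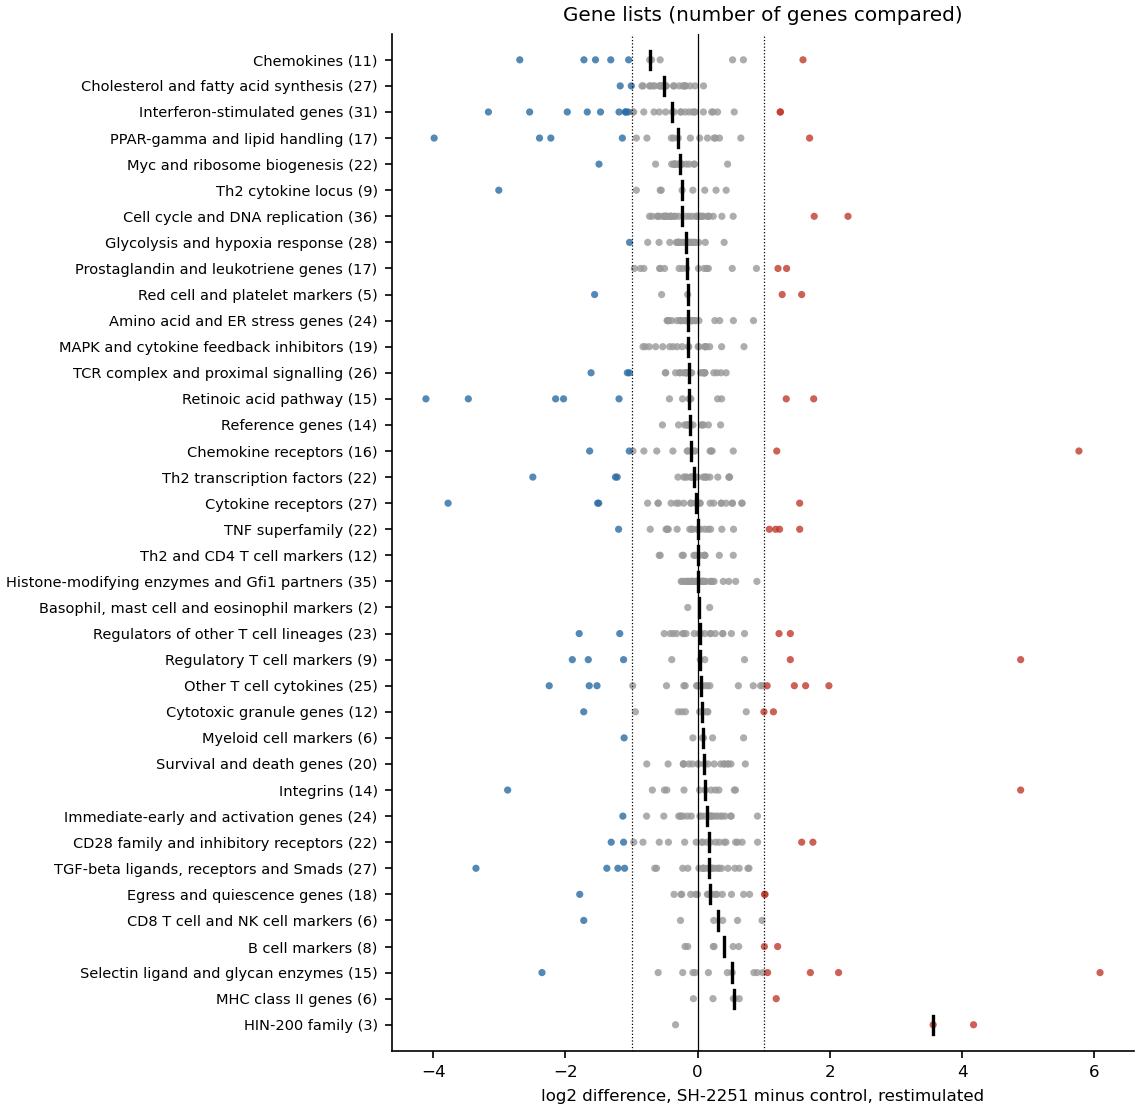
Log2 difference between SH-2251 and control in restimulated Th2 cells for the members of each gene list, with the number compared in brackets. Points are genes, blue and red where at least 2-fold lower or higher (bounds included), black bars are list medians and dotted lines mark 2-fold. Chemokines have the lowest median (-0.73), and the HIN-200 family, with 3 genes, the highest.

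Markers of other cells were summed within each array. Such sums mix probes, so they were compared between the 2 arrays for a list and not between lists. In bulk RNA, fewer cells of a type and less RNA per cell cannot be told apart. For B cells, 8 of 10 markers were above background on both arrays, summing to 7.08 in the control and 10.1 with SH-2251, with Ms4a1 2.31-fold and Fcer2a 2.01-fold higher and Pax5 and Ebf1 not above background. The 6 MHC class II genes summed to 35.5 and 48.5, with Cd74 2.28-fold higher. CD8 T cell and NK cell markers summed to 99.9 and 33.2, nearly all of it Gzma, a granule protease with levels of 6.57 and 4.85 (3.30-fold lower), while Klrb1c, Ncr1, Klrk1 and Klre1 were not above background. Of the 6 markers of this list compared, 4 lay above 0, with a median of 0.31 and Cd8a at 0.97. Myeloid markers summed to 3.11 and 3.21, with 8 of 14 not above background on either array. Regulatory T cell markers summed to 354 and 379, most of it from the brightest member of the list (8.30 and 8.41 on the log2 scale). They were divided, with Gpr83 (3.15-fold), Izumo1r (3.72-fold) and Ctla4 lower and Itgae and Ikzf2 higher. The other 4 members compared, Foxp3 among them, were within 2-fold. Of 5 red cell and platelet markers compared, Hbb-bt was 2.95-fold lower, Hba-a1 2.43-fold higher and Alas2 at least 2.98-fold higher. The part of other cells in the differences above was not tested.

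Where a gene had 2 probes above background on both arrays, the second gave a check within the arrays. Of 110 such genes that differed at least 2-fold by the brightest probe, 79 (71.8%) did so in the same direction by the second, 26 had the same direction by less, and 5 had the opposite direction by less than 2-fold. Probes on the same arrays share the RNA, so this check covers the probe and not the culture.

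**Figure D5:**
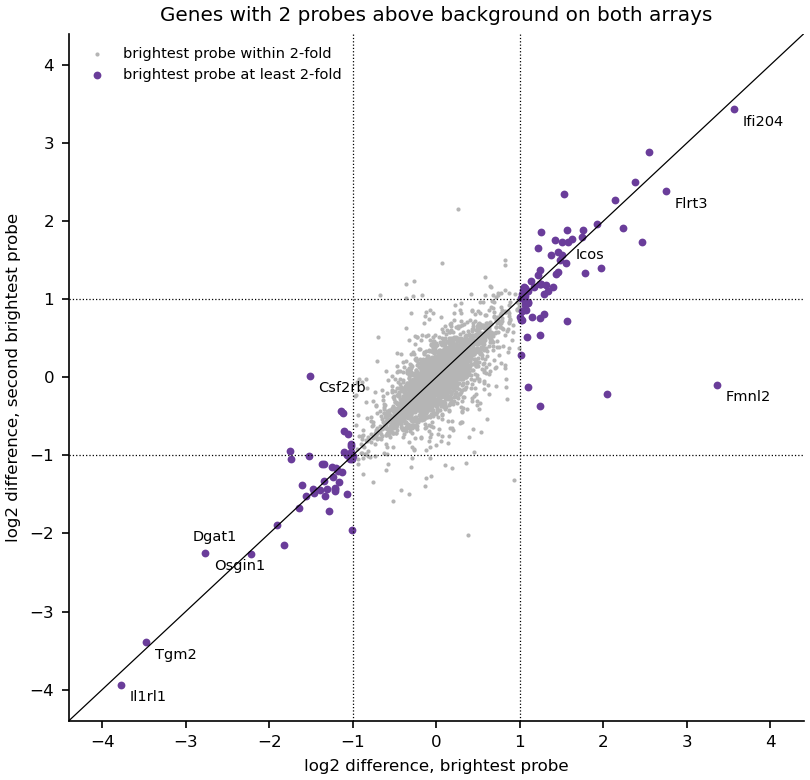
Log2 difference between SH-2251 and control in restimulated Th2 cells by the brightest probe of a gene (horizontal axis) and by the second brightest (vertical axis), for the 4189 genes with both above background on both arrays. Purple points differ at least 2-fold by the brightest probe, the solid line marks equal values and dotted lines 2-fold. Most purple points lie near the line, and Fmnl2 and Csf2rb lie far from it.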

How the data were processed

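RNA from 4 conditions was hybridised to Agilent whole mouse genome arrays with 1 dye (Cy3), 1 array per condition, all on 1 slide. The authors deposited the scanner intensity of each spot, written by Agilent Feature Extraction (10.7 in the submitters' processing notes, 10.7.3.1 in the file headers) after its background correction. A further deposited table holds log2 values, normalized with the Subio Platform according to the methods, and for 99.6% of probes on each array these matched the log2 intensities minus a constant, within 0.01.

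Control spots and outlier spots (77 to 106 per array) were left out, spots of a probe were averaged, and the 75th percentile of the log2 intensities, at 499 to 614 intensity units, was subtracted. Between 56.0% and 56.7% of probes were well above background, no spot was saturated, and precision is limited by the number of arrays. Probes were named by RefSeq accession (GRCm38.p6), 27198 of 41174 matching. The array was designed on mm9, so no coordinates but those of the RefSeq promoters are given. Each gene took the probe whose log2 signal was highest on average over the 4 arrays. Where 1 side was not well above background, it was raised to the array's dimmest well-above-background signal if it lay under that, and the difference was written as a bound.

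The genes named are the 15 largest differences each way measured on both arrays, the 8 largest bounds each way, members of 38 gene lists and the genes the study is about. Others are said to be chosen after their values were seen. Some genes that fall under these criteria are not reported here. The members and the lists were chosen with earlier results of these data known. No test was made, since there was 1 array per condition. The calculation was tested on simulated data with planted fold changes. Alternatives of scaling, background correction, filter, probe and threshold are in the closing section. The normexp alternative was planned on mean spot signals and used median spot signals instead (offset 50). The software was limma 3.58.1 in R 4.3.3, and numpy 2.4.6, pandas 2.3.3, Biopython 1.88 and matplotlib 3.10.9 in Python 3.11.15.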

Additional observations from a re-analysis of the deposited data

Results flagged for a closer look

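9 genes were at least 2-fold lower in one state and at least 2-fold higher in the other when SH-2251 was set against control, with 1 array per condition. The difference between the states was not tested for any of them. 4 were lower after restimulation and higher at rest: Ppp1r14d (-2.32 after restimulation and 1.28 at rest, on the log2 scale), Neto1 (-1.61 and 1.68), Filip1 (-1.41 and 1.5) and Rab39b (-1.15 and 1.75). 5 were higher after restimulation and lower at rest: Kcna4 (2.17 and -1.59), Scin (1.96 and -1.17), Ramp3 (1.20 and -1.47), Cxcr6 (1.20 and -1.04) and Prl2c5 (1.01 and -2.30). Scin, Ramp3 and Cxcr6 were above background on all 4 arrays, and the other 6 genes had at least 1 of their differences as a bound. Apart from Cxcr6, these genes were chosen after their values were seen.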

How the results depend on the processing

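The counts of 351 lower and 334 higher genes stayed within 1.5 times under median centring, quantile normalization, outlier spots kept and the mean of all probes. The authors' values gave 351 and 333, but these are the same intensities minus a constant for 99.6% of probes and are no separate check. Requiring both arrays above background only drops the bounds and leaves 239 and 266. The counts were 158 and 149 with normexp, whose offset compresses dim signals, and 950 and 677 with no filter and no bound. With the second brightest probe, which fewer genes have, they were 81 and 89. At a threshold of 1.5-fold they were 902 and 871, and at 3-fold 144 and 102. Under normexp 79 of 138 named genes moved by more than their technical SD, and many bounds came out smaller, Muc13 at -3.90 and Gcnt1 at 4.02. Directions turned for Fmnl2 (-0.10) and Csf2rb (0.0196) by the second probe, and for Chst2 by the second probe (0.75) and by the mean of all probes (0.30). The median of the HIN-200 list was -0.0747 with no filter, which adds 5 genes that are not above background. No paired analysis was possible because each condition had 1 array. Depth in the sense of reads does not apply, and dim probes, known only as bounds, are the least certain.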
